A study of Mus musculus with 14 samples.

Results

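The 37 genes described here encode proteins of the chemical synapse: 25 act on the presynaptic side, in synaptic vesicles, the fusion machinery, the active zone, vesicular transmitter transport and the neurexins, and 12 act on the postsynaptic side, as neuroligins, scaffolds and the kinase CaMKII. They were taken by symbol from a fixed list, which was drawn up with earlier results of these data known. All 37 were found among the 21893 genes named on the array, and the value of a gene is that of its brightest probe on average across the 14 arrays. For 18 of the genes the array held 1 named probe, and for 19 it held several.

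At a chemical synapse, neurotransmitter is loaded into vesicles by transporters, the vesicles dock at the active zone, and a rise in calcium makes the SNARE proteins Snap25, syntaxin and Vamp fuse the vesicle with the membrane. Across the cleft, neuroligins bind neurexins, and scaffolds of the Dlg, Homer and Shank families hold receptors and CaMKII in the postsynaptic density. In the newborn mouse brain most synapses have yet to form, and the neuromuscular junctions of skeletal muscle hold motor nerve terminals while the cell bodies lie in the spinal cord.

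RNA was measured on 1-colour (Cy3) Agilent arrays in whole skeletal muscle and whole brain tissue from 1-day-old, untreated mice labelled as C57BL6. The mice were either WT or Cugbp1 KO. Cugbp1, now named Celf1, encodes a CELF-family protein that binds RNA and controls splicing, translation and mRNA decay. Muscle was represented by 3 WT and 3 KO arrays and brain by 4 WT and 4 KO arrays. The KO line came from BayGenomic embryonic stem cells with a trap vector inserted ahead of the start codon, injected into C57BL6 mice. The labels give no litter and no sex, and they do not say whether samples came from separate animals, so p-values measure only the spread between these samples, which may be technical. In whole tissue, fewer cells of a type and less RNA per cell cannot be told apart.

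A level is the log2 of the deposited intensity minus the 75th percentile of the named probes on the same array, which ranged from 883 to 1398 intensity units. The lowest value on an array lay between 2.04 and 3.51 units. No pair of arrays held identical values, and arrays correlated at 0.986 to 0.994 within brain and at 0.968 to 0.987 within muscle. Celf1 itself read 4854 to 6961 units on the WT brain arrays and 1637 to 2086 on the KO brain arrays. In muscle it read 3099 to 4696 units in WT and 498 to 758 in KO. Brain WT arrays 3 and 4 stood apart from the other brain arrays. Their median deviation over 10 hypoxia and glycolysis genes from the mean of the brain arrays was 1.10 and 1.28 on the log2 scale, against -0.69 to -0.06 on the other 6. Muscle WT array 3 stood apart in the same list, at 2.01 against -0.78 to -0.24. Brain values that those 2 arrays moved by much are given with and without them.

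The first comparison asked which of the synaptic genes the newborn muscle also carries. WT brain was set against WT muscle in 1 limma model of 4 group means over all 14 arrays, with Benjamini-Hochberg adjustment over all genes and a threshold of 0.05. Of the 37 genes, 32 were higher in brain (27% of all named genes were), and 1, Nlgn3, was lower (31.4% of all). The median difference was 4.26 on the log2 scale, against -0.04 over all named genes. Between the KO tissues, 32 were higher in brain (28.4% of all) and 2 lower (31% of all), Nlgn3 and Camk2a. Skeletal muscle genes such as Ckm and Acta1 were lower in brain for 10 of 10, and neuron markers such as Tubb3 and Rbfox3 were higher in brain for 12 of 12, which matched the labelled tissues.

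**Figure D1:**
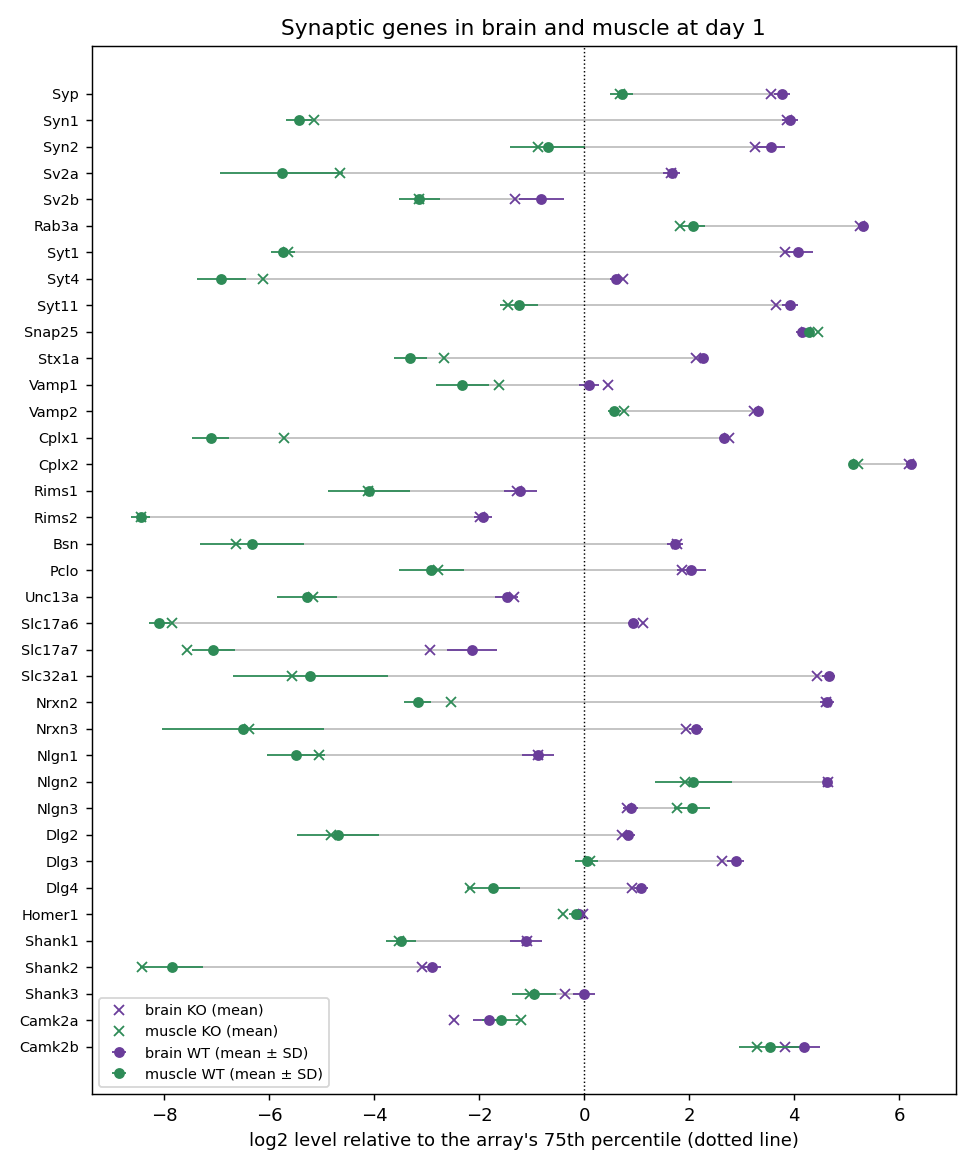
Mean log2 level of each of the 37 genes on the x axis, where 0 (dotted line) is the array's 75th percentile. Filled circles with bars are the WT means ± SD (4 brain arrays in purple, 3 muscle arrays in green), crosses are the KO means, and a grey line joins the WT means of each gene. Snap25 and Homer1 have brain and muscle values that lie on each other, whereas Syn1, Syt1, Cplx1 and Slc32a1 are over 9 log2 units apart.

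All 6 vesicle proteins were higher in brain. Syn1, a synapsin that tethers vesicles to the cytoskeleton, differed by 9.35 ± 0.16 (log2 ± SE; adjusted p = 4.6e-13, limma), a 654-fold difference in signal. Its intensity in WT muscle was 20.5 to 25.1 units, against 13052 to 21906 in WT brain. The related Syn2 differed by 4.26 ± 0.27. Sv2a and Sv2b, vesicle glycoproteins, differed by 7.43 ± 0.43 and 2.32 ± 0.24. Synaptophysin (Syp), an abundant vesicle membrane protein, differed by 3.06 ± 0.16, and Rab3a, a vesicle GTPase, by 3.24 ± 0.25. Syp and Rab3a still lay above the 75th percentile in muscle, at a mean of 0.71 ± 0.22 (SD, n = 3) and 2.06 ± 0.24.

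The 3 synaptotagmins and the 3 vesicular transporters were all higher in brain. Syt1, the calcium sensor of fast release, differed by 9.82 ± 0.21, whereas Syt11, a relative with little or no calcium binding, differed by 5.16 ± 0.19. Syt4, a further relative, was near the lowest value on 1 of 3 WT muscle arrays, and its brain level was at least 179-fold higher. Slc32a1, which loads GABA and glycine into vesicles, differed by 9.87 ± 0.62. Its WT muscle arrays spread from 9.0 to 76.1 intensity units, while its WT brain arrays read 27071 to 31330. Its second probe gave 2.67. Slc17a6, a vesicular glutamate transporter, was within 2-fold of the lowest value of the array on all 3 WT muscle arrays. Set against that floor, its level in WT brain was at least 379-fold higher. Across the other settings its log2 difference went down to 5.20. Slc17a7, the other glutamate transporter, differed by 4.93 ± 0.42.

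Within the fusion machinery the 6 genes did not share 1 pattern. Stx1a, a syntaxin, differed by 5.56 ± 0.16, and the synaptobrevins Vamp1 and Vamp2 by 2.41 ± 0.31 and 2.74 ± 0.13. Their second probes, which were dim, went the opposite way, at -1.19 and -0.66. With the mean over its probes Vamp1 differed by 0.61 and did not pass (adjusted p = 0.181, limma), while Vamp2 still passed. The complexins, which clamp and promote SNARE-driven fusion, lay far apart. Cplx1 differed between the tissues by 9.77 ± 0.19, an 875-fold difference in signal, and read 5.8 to 11.0 intensity units in WT muscle. Cplx2 differed by only 1.10 ± 0.12, or 2.15-fold, and read 31915 to 40697 units in WT muscle against 77373 to 95270 in WT brain. The other 4 probes of Cplx2 gave differences of 0.69 to 4.27.

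Snap25, the SNARE of the presynaptic membrane, showed no detectable difference between the tissues. Its levels on the WT brain arrays were 4.12, 4.07, 4.09 and 4.32, and on the WT muscle arrays 4.22, 4.32 and 4.28. The groups overlapped, and the difference was -0.12 ± 0.18 (adjusted p = 0.60, limma). Without scaling the sign turned to 0.09, and with quantile normalization to 0.20. Snap25 has 1 named probe, and what that probe detects in muscle was not tested. Over the 12 neuron markers the summed intensity in WT muscle was 1464 to 3661 units, against 272723 to 332253 in WT brain.

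The active zone genes were all higher in brain. Rims2, which links vesicles to calcium channels, was near the lowest value on all 6 muscle arrays. Set against that floor, its brain level was at least 52.1-fold higher in WT and at least 63.0-fold higher in KO. Across the other settings its log2 difference in WT went down to 2.54. Rims1 differed by 2.88 ± 0.30, the giant scaffold Pclo by 4.95 ± 0.25, and Unc13a, a vesicle priming factor, by 3.80 ± 0.23. The other 3 probes of Pclo gave 0.40 to 6.18. Bsn, the second giant scaffold, was near the lowest value on 1 of 3 muscle arrays in each genotype, and its brain level was at least 259-fold higher in WT.

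Among the adhesion molecules, Nrxn2 differed by 7.79 ± 0.15, Nlgn1 by 4.60 ± 0.28, and Nlgn2, the neuroligin of inhibitory synapses, by 2.55 ± 0.26. Nrxn3 was near the lowest value on 1 of 3 WT muscle arrays, and its brain level was at least 327-fold higher, while its other 5 probes gave -0.46 to 8.34. Nlgn3 was the exception. Its chosen probe read 0.94, 0.67, 0.99 and 0.93 in WT brain and 1.95, 1.78 and 2.44 in WT muscle. All brain arrays lay below all muscle arrays, by -1.17 ± 0.19 (adjusted p = 1.7e-04, limma). The other 2 probes of Nlgn3 went the opposite way, by 3.94 and 3.79, and the mean over its 3 probes gave 2.19, so no direction holds for the gene as a whole.

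Within the 37, the postsynaptic genes had smaller tissue differences on the median. Over all 12 it was 2.46, against 5.16 over the 25 presynaptic genes. The wider lists described below did not share this gap, with medians of 3.57 over 38 further postsynaptic and 3.46 over 43 further presynaptic genes. The membrane-associated guanylate kinases Dlg2, Dlg3 and Dlg4 (Dlg4 encodes PSD-95) differed by 5.52 ± 0.29, 2.84 ± 0.18 and 2.82 ± 0.27. Of the Shank scaffolds, Shank1 differed by 2.37 ± 0.22 (its other 3 probes gave -0.38 to 3.91) and Shank3 by 0.96 ± 0.23 (adjusted p = 0.00253, limma). Shank2 was near the lowest value on 2 of 3 WT and all 3 KO muscle arrays. Its brain level was at least 22.4-fold higher in WT and at least 29.4-fold higher in KO. Homer1, which couples metabotropic receptors to Shank, showed no detectable difference on its chosen probe, at 0.05 ± 0.30, while its other 4 probes gave -0.05 to 1.68. The CaMKII subunits did not pass in WT: Camk2a differed by -0.23 ± 0.43 and Camk2b by 0.64 ± 0.27 (adjusted p = 0.055, limma). The call of Camk2b depended on the setting: it passed without scaling, with quantile normalization and with the mean over its probes, among others. Between the KO tissues Camk2a was lower in brain, by -1.29 ± 0.43 (adjusted p = 0.0193, limma), and its arrays overlapped.

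Beyond the 37 genes, other synaptic genes were mostly higher in WT brain too. Of 48 further presynaptic genes 43 were measured, of which 37 were higher in brain (27% of all genes were) and 1 lower (31.4% of all). Of 40 further postsynaptic genes 38 were measured, of which 31 were higher and 1 lower. The exceptions, named after their values were seen, were Rab3c at -2.54 ± 0.15 and Dlg1 at -0.71 ± 0.21.

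Promoter sequences were available for 28 of the 37 genes (44 promoters; RefSeq, GRCm38.p6). The 250 bases before the start of transcription are given for Syn1, Cplx1 and Cplx2, because Syn1 and Cplx1 had some of the widest differences between brain and muscle and Cplx2 was signalled strongly in both tissues. Syn1 lies on the minus strand at chrX:20920919-20921168, Cplx1 on the minus strand at chr5:108550028-108550277 and Cplx2 on the plus strand at chr13:54302306-54302555. Each is read 5′ to 3′ along the gene, and capitals mark matches to the motifs named after the sequences.
Syn1: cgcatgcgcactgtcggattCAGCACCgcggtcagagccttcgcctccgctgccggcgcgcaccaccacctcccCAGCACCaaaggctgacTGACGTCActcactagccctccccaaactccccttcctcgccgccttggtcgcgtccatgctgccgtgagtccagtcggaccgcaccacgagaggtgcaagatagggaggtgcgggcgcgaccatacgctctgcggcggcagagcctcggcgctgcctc
Cplx1: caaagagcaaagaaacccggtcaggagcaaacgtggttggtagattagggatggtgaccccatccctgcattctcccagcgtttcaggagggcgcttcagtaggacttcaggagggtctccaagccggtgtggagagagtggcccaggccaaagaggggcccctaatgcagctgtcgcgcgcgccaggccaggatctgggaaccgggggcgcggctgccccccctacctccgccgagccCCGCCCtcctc
Cplx2: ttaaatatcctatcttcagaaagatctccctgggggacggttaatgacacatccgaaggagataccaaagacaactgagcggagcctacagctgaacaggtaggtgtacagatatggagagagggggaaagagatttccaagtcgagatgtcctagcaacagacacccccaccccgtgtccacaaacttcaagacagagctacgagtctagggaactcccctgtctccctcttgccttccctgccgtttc

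The motifs were searched on both strands in the same window of all 32851 RefSeq promoters. RE1 is the element bound by REST, a repressor of neuronal genes in other tissues, and its left part was searched as CAGCACC, its right part as GGACAGC and its core as the left part, any 2 bases and GGACAG. The left part was found in 5.73% of all promoters and in 2 of the 44 synaptic ones, those of Syn1 and Nlgn1. In Syn1 it starts at bases -230 and -176 from the start. The right part was found in 5.28% of all promoters and in 0 of the 44, and the core in 0.0335% of all and in 0 of the 44. Only exact matches were counted. In Syn1 the left part at -230 is followed by 2 bases and GGTCAG, where the core has GGACAG. The cyclic AMP response element TGACGTCA was found in 1.55% of all promoters and, among the 44, in that of Syn1 alone, at -159. The GC box GGGCGG was found in 32.7% of all promoters and in 43.2% of the synaptic ones, including Cplx1 at -11, where it reads CCGCCC along the gene. The TATA box TATAAA was found in 12.4% of all and in 6.82%. Cplx2 held none of these letters in this window. GC content was 68% for Syn1, 64.8% for Cplx1 and 50.8% for Cplx2. The motifs can overlap each other, and a match is a description of the letters, not a binding site.

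The second comparison was the main one of the design, brain of KO mice against brain of WT mice (limma on the 8 brain arrays, adjusted over all genes). None of the 37 synaptic genes passed the threshold (5 of all named genes did, 0.0228%), and the smallest adjusted p among them was 0.580. At an unadjusted p under 0.05, 8 of the 37 (21.6%) had a lower level in KO, where 5.22% of all genes did, and 0 had a higher one, where 3.13% did. The log2 difference was below 0 for 27 of the 37 and for 47.8% of all genes, and above 0 for 10 (52.2% of all), with medians of -0.07 and 0.01; with the arrays scaled to the same median, 18 of the 37 were below 0 and the median of the 37 was 0.0044. The KO arrays lay entirely below the WT arrays for 5 genes (13.5%), Syn2, Syt11, Camk2a, Camk2b and Slc17a7, and for 2.44% of all genes. They lay entirely above for 0 of the 37 and for 1.41% of all.

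**Figure D2:**
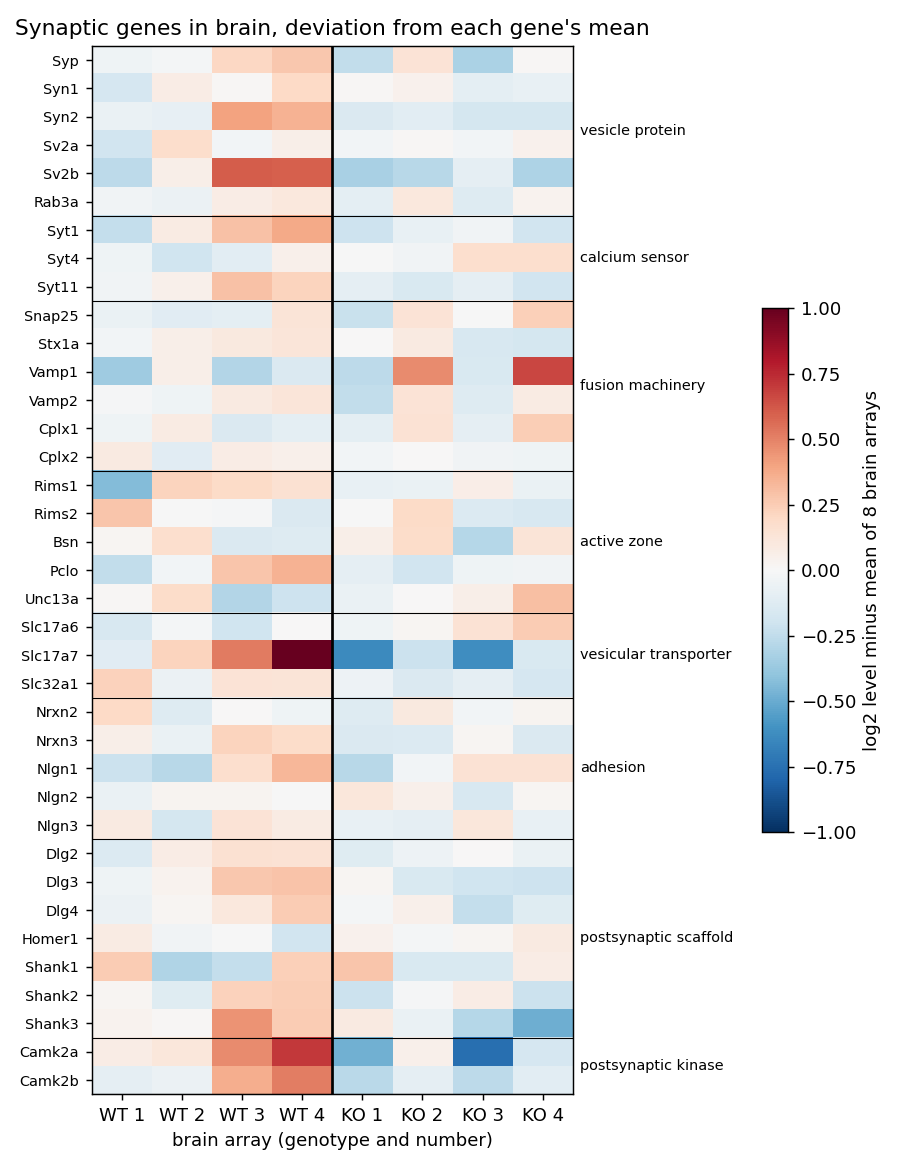
Deviation of each of the 37 genes (rows, grouped by role) from its own mean over the 8 brain arrays (columns), on the log2 scale, red above and blue below, with the scale ending at ±1. WT arrays 3 and 4 are the reddest columns, with median deviations of 0.11 and 0.14, and Slc17a7, Camk2a and Sv2b have the deepest colours.

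The 37 genes moved with the arrays that stood apart. Their median deviation was -0.04, 0.00, 0.11 and 0.14 on WT arrays 1 to 4, and -0.09, -0.01, -0.09 and -0.06 on KO arrays 1 to 4. Leaving out arrays cannot undo a lack of overlap, so without WT arrays 3 and 4 the same 5 genes could only stay below. Their staying below is therefore no check on those arrays (5.57% of all genes then lay below). In that setting 1 gene, Syt4, lay entirely above (3.23% of all), and 22 of 37 differences were below 0 (48.5% of all). An unadjusted p under 0.05 (limma) was reached by 0 of the 37 (3.58% of all). Neuron markers were level on all 8 brain arrays, with median deviations of -0.05 to 0.05, and 7 of 12 differences lay above 0.

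Other marker lists differed between the brain arrays, although no marker in them passed the threshold. All 9 astrocyte markers had differences below 0, with a median of -0.31 and summed intensities of 68074 to 108138 units in WT and 75689 to 79747 in KO. Their median deviation was 0.47 and 0.41 on WT arrays 3 and 4, against -0.35 to -0.01 on the others, so that WT array 1, at -0.11, lay among the KO arrays. All 10 hypoxia and glycolysis genes had differences below 0, with a median of -0.89 and sums of 119367 to 307654 in WT and 96237 to 142760 in KO. Of the microglia markers 7 of 8 were below 0, and of the skeletal muscle genes 10 of 10, with sums of 1628 to 4143 in WT and 1300 to 1778 in KO. The skeletal muscle genes were highest on WT array 2, with a median deviation of 0.84, against -0.31 to 0.14 on the others. No marker of these lists was near the lowest value on every brain array other than Myog. The part of these lists in the synaptic values was not tested.

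The vesicular transporters included the gene with the smallest p. Slc17a7, which loads glutamate in cortical neurons, had levels of -2.65, -2.31, -2.02 and -1.54 on WT arrays 1 to 4, and of -3.17, -2.75, -3.15 and -2.68 on KO arrays 1 to 4. The 4 KO values lay below the 4 WT values, with KO array 4 close to WT array 1. The difference was -0.81 ± 0.24, or 1.75-fold (unadjusted p = 0.0102, adjusted p = 0.580, limma), and -0.46 ± 0.20 without WT arrays 3 and 4. Slc32a1, the inhibitory transporter, had levels of 4.78, 4.49, 4.68 and 4.67 in WT and 4.49, 4.40, 4.46 and 4.37 in KO. WT array 2 and KO array 1 met at 4.49, and the difference was -0.22 ± 0.09, and -0.20 ± 0.12 without WT arrays 3 and 4. Slc17a6, the glutamate transporter of deeper brain regions, had a difference of 0.19 ± 0.10.

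**Figure D3:**
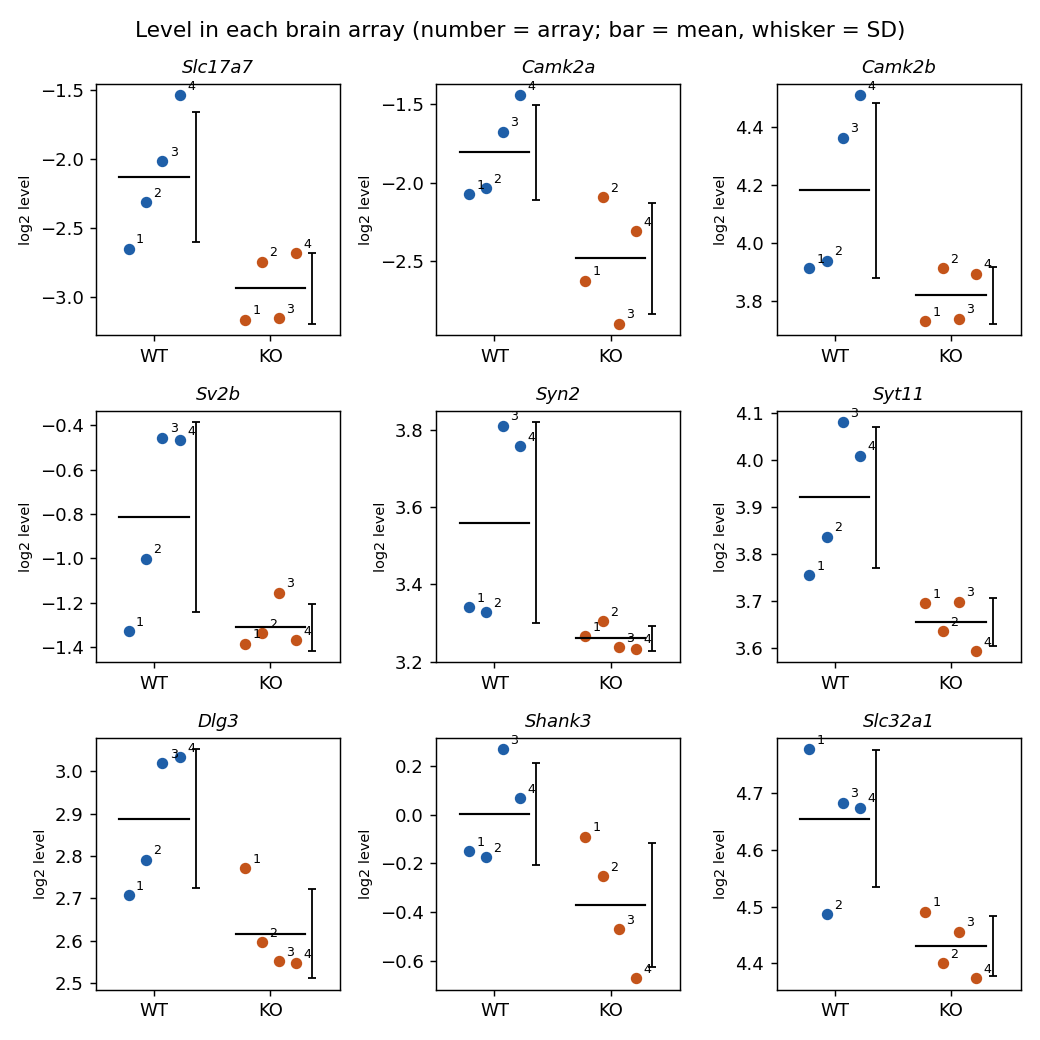
Log2 level of 9 synaptic genes on each brain array, as points numbered by array (WT blue, KO orange), with the mean as a line and the SD as a whisker. WT arrays 3 and 4 are the highest of the 8 arrays in every panel except that of Slc32a1, where WT array 1 is highest, and the y axes differ between panels and do not start at 0.

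The postsynaptic kinase CaMKII, which is needed for long-term potentiation, had differences below 0 for both subunits. Camk2a had levels of -2.07, -2.03, -1.67 and -1.44 in WT and -2.63, -2.09, -2.90 and -2.31 in KO. All KO arrays lay below the WT arrays, KO array 2 just below WT array 1. The difference was -0.68 ± 0.21, or 1.6-fold (unadjusted p = 0.0129, limma), and -0.43 ± 0.24 without WT arrays 3 and 4. A second Camk2a probe gave -0.53, and the third lay near the bottom of the range. Camk2b had levels of 3.91, 3.94, 4.36 and 4.51 in WT and 3.73, 3.91, 3.74 and 3.90 in KO. WT arrays 1 and 2 lay next to KO arrays 2 and 4, and the difference of -0.36 ± 0.15 shrank to -0.11 ± 0.11 without WT arrays 3 and 4. The second Camk2b probe gave -0.55.

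Among the vesicle proteins all 6 differences were below 0, from -0.50 to -0.01 (47.8% of all genes were below 0), but without WT arrays 3 and 4 only 3 were, and Syn1, Sv2a and Rab3a stood at 0.02, 0.0042 and 0.03. Sv2b had levels of -1.33, -1.0, -0.46 and -0.47 in WT and -1.38, -1.34, -1.15 and -1.37 in KO. WT array 1 lay among the KO arrays, and the difference of -0.50 ± 0.20 (unadjusted p = 0.0393, limma) was -0.15 ± 0.14 without WT arrays 3 and 4. Syn2 had levels of 3.34, 3.33, 3.81 and 3.76 in WT and 3.27, 3.30, 3.24 and 3.23 in KO. The KO arrays lay just below WT arrays 1 and 2, and the difference of -0.30 ± 0.13 was -0.07 ± 0.10 without the other 2 WT arrays. Syp had a difference of -0.21 ± 0.14, and -0.07 ± 0.16 without WT arrays 3 and 4, and those of Syn1, Sv2a and Rab3a were between -0.06 and -0.01.

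Syt11, a synaptotagmin linked to vesicle recycling, had levels of 3.75, 3.84, 4.08 and 4.01 in WT and 3.70, 3.64, 3.70 and 3.59 in KO. The groups did not overlap, and the difference was -0.26 ± 0.10 (unadjusted p = 0.0298, limma), and -0.14 ± 0.10 without WT arrays 3 and 4. Syt1 had a difference of -0.25 ± 0.14, and -0.05 ± 0.13 without those arrays. For Syt4 it was 0.15 ± 0.10, and 0.20 ± 0.12 without them. In the fusion machinery 3 differences were above 0 and 3 below, with a median of 0.01. Vamp1 had the highest difference of all 37 genes, at 0.37 ± 0.22, with KO levels of 0.01, 0.74, 0.12 and 0.94 around WT levels of -0.09, 0.33, -0.02 and 0.13. Snap25, Stx1a, Vamp2, Cplx1 and Cplx2 had differences between -0.12 and 0.10. The 5 active zone genes ranged from -0.18 ± 0.14 for Pclo to 0.15 ± 0.14 for Unc13a. Without WT arrays 3 and 4 both signs turned, to 0.05 ± 0.12 for Pclo and -0.03 ± 0.14 for Unc13a. Rims1, Rims2 and Bsn then stood at 0.07 ± 0.19, -0.17 ± 0.15 and -0.08 ± 0.16. The second Unc13a probe gave -0.40.

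The adhesion molecules had differences near 0 on their chosen probes, with a median of -0.01. Nrxn3 had the lowest, at -0.20 ± 0.10, and -0.10 ± 0.11 without WT arrays 3 and 4, while Nlgn1, Nlgn2, Nlgn3 and Nrxn2 lay between -0.06 and 0.01. Nlgn1 moved to 0.25 ± 0.16 without those arrays. The other probes of Nlgn3 gave -0.37 and -0.28, and the second probes of Nlgn1 and Nrxn2 gave -0.14 each. The other probes of Nrxn3 gave -0.24 to -0.07. Of the 7 scaffolds 5 had differences below 0. Dlg3, also called SAP102 and the scaffold typical of early synapses, had levels of 2.71, 2.79, 3.02 and 3.03 in WT and 2.77, 2.60, 2.55 and 2.55 in KO. KO array 1 lay above WT array 1, and the difference was -0.27 ± 0.11 (unadjusted p = 0.0408, limma), and -0.13 ± 0.12 without WT arrays 3 and 4. Shank3 had levels of -0.15, -0.18, 0.27 and 0.07 in WT and -0.09, -0.25, -0.47 and -0.67 in KO. The groups overlapped at KO array 1, and the difference of -0.37 ± 0.16 was -0.21 ± 0.18 without WT arrays 3 and 4. Homer1, Shank1, Dlg2, Dlg4 and Shank2 ranged from -0.18 to 0.07 on their chosen probes, and from -0.06 to 0.03 without WT arrays 3 and 4. Their other, dimmer probes gave other values. The second probe of Shank2 gave -1.02, the other 3 of Shank1 gave -1.01 to -0.20, and the second of Dlg2 gave -0.42.

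**Figure D4:**
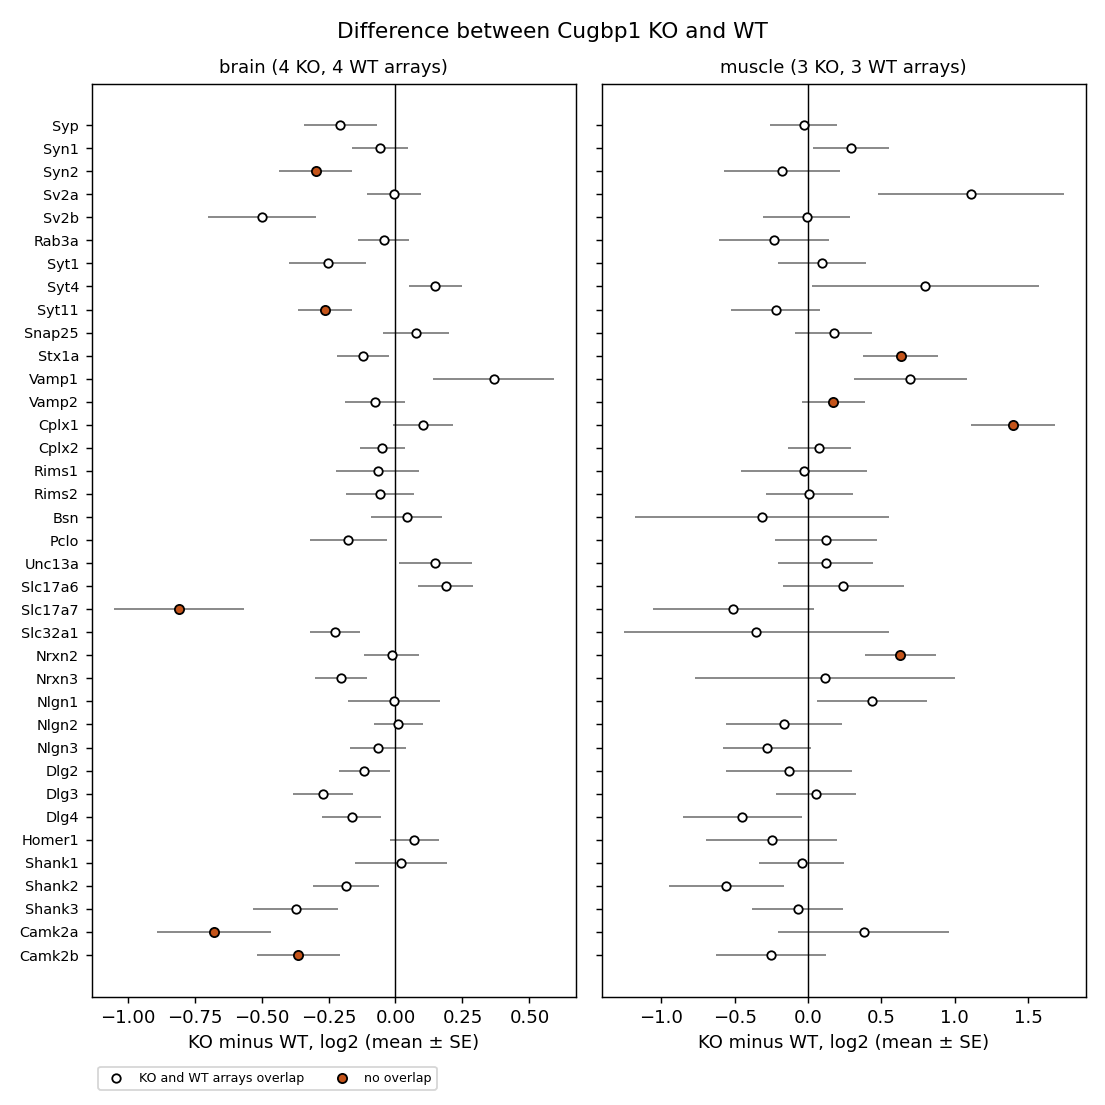
KO minus WT difference (log2, x axis) for each of the 37 genes in brain (left, 4 KO and 4 WT arrays) and muscle (right, 3 and 3), as the mean with its SE. Filled points mark genes whose KO and WT arrays do not overlap, 5 in brain, all below 0, and 4 in muscle, all above 0, and the x axes of the panels differ.

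Levels on every brain array are given above for Vamp1 and for 9 genes with low values in KO. Those 9 (Slc17a7, Camk2a, Camk2b, Sv2b, Syn2, Syt11, Dlg3, Shank3 and Slc32a1), described because they were low, kept a negative difference under every setting tried. So did Syp, Syt1, Nrxn3, Stx1a, Vamp2, Dlg2, Dlg4 and Shank2. Slc17a6, Vamp1, Syt4, Cplx1 and Snap25 kept a positive difference under every setting. All settings reused the arrays from which the 9 were picked, so the kept sign is no separate support. Which genes lay outside the WT arrays depended on the scaling. Without scaling, 0 of the 37 lay entirely below (1.21% of all genes) and 0 entirely above (0.767% of all). With median scaling 0 lay below (1.48% of all) and 1, Slc17a6, above (2.85% of all). With quantile normalization 4 lay below, Syn2, Syt11, Camk2b and Slc32a1 (2.19% of all), and 0 above (2.23% of all). When limma weighted the arrays by their quality, 8 of the 37 passed the threshold (Syn2, Syt11, Sv2b, Dlg3, Shank3, Camk2a, Camk2b and Slc17a7), 21.6% against 9.86% of all genes. Those weights were 2.99 and 1.55 for WT arrays 3 and 4 and 0.40 and 0.34 for WT arrays 1 and 2, and WT arrays 3 and 4 are those with the high hypoxia and glycolysis values.

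Other synaptic genes in brain also passed no test. Of the 43 further presynaptic genes, 33 differences were below 0 and 10 above (47.8% and 52.2% of all genes), with a median of -0.13, and 2 genes lay entirely below WT (2.44% of all). Of the 38 further postsynaptic genes, 25 were below 0 and 13 above, with a median of -0.02, and 3 lay entirely below WT. The 4 with the smallest p in each list all had differences below 0. Syn3, the third synapsin, had -0.43 ± 0.13, and -0.44 without WT arrays 3 and 4. Stxbp5, which binds syntaxin, had -0.29 ± 0.10, and -0.20 without them. Synpr, a synaptophysin relative, had -0.41 ± 0.15 and -0.19, and Unc13c, a priming factor, -0.45 ± 0.17 and -0.42. On the postsynaptic side, the adhesion molecules Il1rapl1 and Lrrtm2 had -0.35 ± 0.11 and -0.37 ± 0.14, and -0.21 and -0.16 without WT arrays 3 and 4. Nrgn, which binds calmodulin, had -0.90 ± 0.34 and -0.32, and Baiap2, a regulator of actin, -0.32 ± 0.14 and -0.17.

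The third comparison set KO muscle against WT muscle (limma on 6 arrays). None of the 37 passed the threshold, nor did any named gene (0%). At an unadjusted p under 0.05, 3 of the 37 had a higher level in KO, Stx1a, Cplx1 and Nrxn2 (0.891% of all genes did), and 0 a lower one (0.667% of all). Celf1 itself did not pass in muscle, although it was 6.83-fold lower in KO (adjusted p = 0.312, limma). The median difference of the 37 was 0.01, against -0.03 over all genes, with 19 above 0 (46.6% of all were) and 18 below (53.4% of all). The KO arrays lay entirely above the WT arrays for 4 genes (10.8%), Stx1a, Vamp2, Cplx1 and Nrxn2, and for 1.86% of all genes. They lay entirely below for 0 of the 37 and 2.09% of all. Stx1a, Cplx1 and Nrxn2 also lay above without scaling (3.47% of all) and with median scaling (1.32% of all) and quantile normalization (2.02% of all), whereas Vamp2 did so only with quantile normalization.

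Cplx1 had the smallest p of the 37 in muscle, at intensities close to the bottom of the range. It read 5.9, 11.0 and 5.8 units on the WT arrays and 15.6, 26.5 and 23.5 on the KO arrays, with levels of -7.23, -6.71 and -7.39 against -6.03, -5.53 and -5.57. All KO values lay above all WT values. The difference was 1.40 ± 0.29, or 2.64-fold (unadjusted p = 0.00199, adjusted p = 1.00, limma). It was 0.16 when 50 units were added before the logarithm. In the model over all 14 arrays, which pools the spread of brain and muscle, Cplx1 passed the threshold (adjusted p = 0.0299, limma; 0.0411% of all genes passed). In brain Cplx1 had a difference of 0.10 ± 0.11, and the difference between the tissues in the KO effect was -1.30 ± 0.27 (adjusted p = 0.680, limma).

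**Figure D5:**
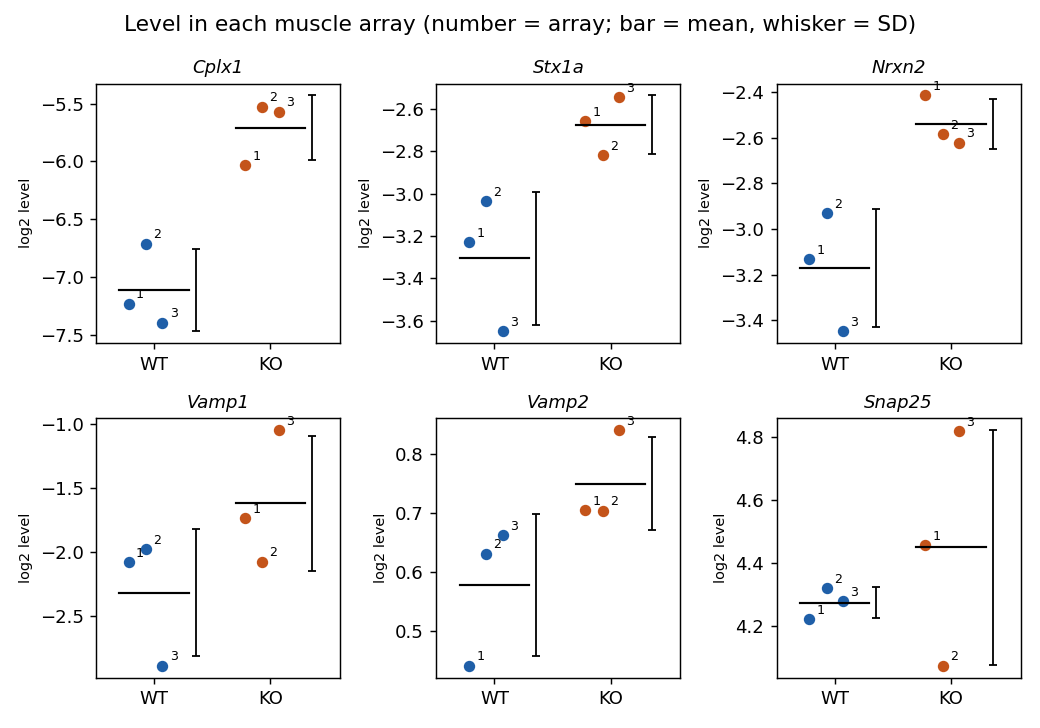
Log2 level of 6 genes of the presynaptic side on each muscle array, as points numbered by array (WT blue, KO orange), with the mean as a line and the SD as a whisker. The KO points of Cplx1, Stx1a, Nrxn2 and Vamp2 lie above all WT points, those of Vamp1 and Snap25 do not, and the y axes differ between panels and do not start at 0.

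The other members of the fusion machinery also had differences above 0 on their chosen probes, so that all 6 did, with a median of 0.40. Stx1a had levels of -3.23, -3.04 and -3.65 in WT and -2.66, -2.82 and -2.55 in KO, a difference of 0.63 ± 0.25 (unadjusted p = 0.0435, limma). Vamp1 had -2.08, -1.98 and -2.89 in WT and -1.74, -2.08 and -1.04 in KO. Vamp2 had 0.44, 0.63 and 0.66 in WT and 0.70, 0.70 and 0.84 in KO. The Vamp2 groups were separated by a narrow gap, with a difference of 0.17 ± 0.21, and Vamp1 overlapped, at 0.70 ± 0.38. The second probe of Vamp2, which was dim, gave -0.35, and that of Vamp1 gave 0.36. Across the other settings the Vamp2 difference went down to -0.09. Snap25 had 4.22, 4.32 and 4.28 in WT and 4.46, 4.07 and 4.82 in KO, and Cplx2 had 5.20, 5.15 and 5.03 in WT and 5.28, 5.06 and 5.28 in KO. Both overlapped, with differences of 0.18 ± 0.26 and 0.08 ± 0.22. The other probes of Cplx2 gave 0.07 to 0.59. WT array 3, which stood apart, was the lowest WT array for Cplx1, Stx1a, Vamp1 and Cplx2 and the highest for Vamp2. With 1 array left out, the differences went down to 1.26 for Cplx1, 0.46 for Stx1a, 0.41 for Vamp1 and 0.03 for Cplx2. Those of Vamp2 and Snap25 went down to 0.10 and -0.01.

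Neural and other marker lists also differed between the muscle arrays, although no marker in them passed the threshold. Of 12 neuron markers 10 had differences above 0, with a median of 0.30, and their summed intensity was 1464 to 3661 units in WT and 3395 to 4245 in KO. Of 5 Schwann cell markers 3 were above 0, with a median of 0.06, and of 4 neuroendocrine markers 3, with a median of 0.52. Skin markers were above 0 for 5 of 5, with a median of 1.56 and sums of 389.8 to 831 in WT and 728 to 3281 in KO. Cartilage and bone markers were above 0 for 5 of 6, with a median of 1.69 and sums of 549 to 1535 in WT and 458 to 7283 in KO. Microglia markers were above 0 for 6 of 8, with a median of 0.28. Hypoxia and glycolysis genes were below 0 for 10 of 10, with a median of -0.78 and sums of 308738 to 528452 in WT and 305796 to 360284 in KO, and endothelial markers for 5 of 5, with a median of -0.25. No marker of the neuron, skin, cartilage or neuroendocrine lists was near the lowest value on every muscle array. The part of these lists in the synaptic values was not tested.

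Among the remaining presynaptic genes in muscle, Nrxn2 had levels of -3.13, -2.93 and -3.45 in WT and -2.42, -2.58 and -2.62 in KO. The groups did not overlap on this probe, with a difference of 0.63 ± 0.24 (unadjusted p = 0.0352, limma), while its second probe gave 0.16. With 1 array left out, the difference on the chosen probe went down to 0.49. Syp had 0.78, 0.47 and 0.89 in WT and 0.73, 0.60 and 0.72 in KO, a difference of -0.03 ± 0.23. Syn2 had -0.26, -0.31 and -1.52 in WT and -0.85, -0.61 and -1.17 in KO, so the WT array that stood apart was its lowest. Rab3a had 1.79, 2.22 and 2.18 in WT and 2.03, 1.09 and 2.38 in KO. Syt11 had -1.30, -1.57 and -0.84 in WT and -1.25, -1.27 and -1.86 in KO. Pclo had -2.75, -2.39 and -3.60 in WT and -2.69, -2.97 and -2.71 in KO. The groups overlapped for each of these 5, with differences of -0.23 to 0.12. The second probe of Syn2, which was dim in muscle, gave 0.77. Sv2a and Syt4 had wide errors, at 1.11 ± 0.63 and 0.80 ± 0.77, and the value of Syt4 came from KO array 1, at 53.7 units against 5.2 to 11.1 on the other 5. The remaining genes of both sides, which were dim in muscle, had differences from -0.56 ± 0.39 for Shank2 to 0.44 ± 0.38 for Nlgn1.

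On the postsynaptic side in muscle, 9 of 12 differences were below 0, with a median of -0.15, and the groups overlapped for all 12. Nlgn2 had levels of 1.62, 1.69 and 2.93 in WT and 2.07, 1.75 and 1.94 in KO. Nlgn3 had 1.95, 1.78 and 2.44 in WT and 1.84, 1.38 and 2.10 in KO. Both were highest on WT array 3, with differences of -0.16 ± 0.39 and -0.28 ± 0.30. Dlg3 had -0.19, 0.11 and 0.24 in WT and 0.48, 0.02 and -0.18 in KO, and Dlg4 had -1.76, -2.22 and -1.22 in WT and -1.61, -2.12 and -2.81 in KO. Homer1 had -0.25, -0.20 and 0.01 in WT and -0.01, -1.41 and 0.23 in KO. KO array 2 was the low one for Homer1, and the differences of these 3 scaffolds were between -0.45 and 0.06. Shank3 had -0.71, -1.45 and -0.71 in WT and -1.11, -0.68 and -1.29 in KO, a difference of -0.07 ± 0.31. Camk2a had -2.00, -1.42 and -1.31 in WT and -0.98, -2.46 and -0.15 in KO. Its KO arrays spanned the WT range on both sides, with a difference of 0.38 ± 0.58. Camk2b had 3.13, 4.22 and 3.27 in WT and 3.43, 2.85 and 3.59 in KO, a difference of -0.25 ± 0.38.

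The KO effects in the tissues were compared directly in the 14-array model. None of the 37 differed past the threshold (0.00914% of all genes did), and the smallest adjusted p was the 0.680 of Cplx1. At an unadjusted p under 0.05 the KO effect was lower in brain than in muscle for 3 of the 37, Stx1a at -0.75 ± 0.22, Cplx1 and Nrxn2 at -0.64 ± 0.21, where 1.61% of all genes were, and higher for 0, where 1.48% were. Slc17a7 and Camk2b had interaction values of -0.30 ± 0.59 and -0.11 ± 0.38. The values of Camk2a, below 0 in brain and above 0 in muscle, gave -1.06 ± 0.60 (unadjusted p = 0.103, limma).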

How the data were processed

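Per the labels, RNA was amplified and labelled with Cy3 and the arrays were read with Agilent Feature Extraction. Its version is not given in the sources used here, nor is any later step. The deposited values were intensity on a linear scale, 55681 probes on 14 arrays with 129 blank cells, none of them in the 37 genes. Detection flags were not used here, and "near the lowest value" means within 2-fold of the lowest value of the array. Probes were named by the series' platform annotation (30626 had 1 gene symbol), and all 37 genes matched RefSeq.

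The log2 of each intensity minus the array's 75th percentile was fitted with limma 3.58.1 in R 4.3.3 (lmFit, eBayes, 2-sided), for all 21893 genes, with Benjamini-Hochberg adjustment and a threshold of 0.05. The steps were tested on simulated data. A fold given as "at least" replaces a muscle value near the lowest by that floor, and it is a bound at the main setting only. Across the other settings the log2 difference between the WT tissues went down to 4.74 for Syt4, 5.71 for Bsn, 6.09 for Nrxn3 and 1.71 for Shank2. For Syn1 and Cplx1, also dim in muscle, it went down to 7.71 and 6.80. The number of arrays limits precision.

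The 37 genes, the other lists and the marker lists were chosen with earlier results of these data known. Levels on every array are given for the 5 genes with the smallest p in each tissue among those above the array median, for all 18 genes above that median in muscle and, chosen after their values were seen, for Slc32a1, Camk2b, Syn2, Shank3, Vamp1, Stx1a, Cplx1 and the tissue values of Snap25 and Nlgn3. Array numbers were not treated as pairs.

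Alternatives were no scaling, quantile and median scaling, 50 units added, genes above the median level, the mean over probes, trend and robust options, array weights, the array number as a block, a spread shared by all groups, and arrays left out.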

Additional observations from a re-analysis of the deposited data

Results flagged for a closer look

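In 74 sets of 4 brain arrays (37 genes in WT and in KO), 1 array lay far from the other 3 in 4 cases, with a gap, divided by the range of the 4, above Dixon's 95% critical value. Chance gives about 1 in 20, and 4 of 74 is close to that. Rims1 was at -1.68 on brain WT array 1, against -1.09 to -1.03 on the other WT arrays. Rims1 was at -1.18 on brain KO array 3, against -1.32 to -1.31. Nrxn3 was at 2.05 on brain KO array 3, against 1.89 to 1.90, and Nlgn3 was at 0.96 on that array, against 0.76 to 0.78. In muscle, with 3 arrays a group, no such check was made.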

How the results depend on the processing

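For the 37 genes, 207 differences changed sign between settings without passing the threshold in either. Nlgn3 in WT brain against WT muscle reversed to 2.19 with the mean over its probes, which averages probes that disagree, and Vamp1 there lost its call, at 0.61. Other causes were not tested.

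Named genes past the threshold in brain KO against WT numbered 5, against 3 without scaling, 3 among genes above the median level (fewer genes tested), 2158 with array weights, 2 with the shared spread, 0 without WT arrays 3 and 4, and 1 to 9 with 1 array left out. In muscle they numbered 0, against 1 with 50 units added, 1 among genes above the median level, 9 with the shared spread and 0 to 1 with 1 array left out. The tissue difference in the KO effect gave 2, against 1 with 50 added, 1 with array weights, 1 without brain WT arrays 3 and 4, and 1 to 8 with 1 array left out. Among genes above the median level, 8106 differed between the WT tissues and 7996 between the KO tissues, where 12798 and 13000 did among all.

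Of the 37, array weights called 8 in brain, and the shared spread called 1 in muscle, Cplx1. Their median difference in brain was 0.0044 with median scaling, -0.16 with the mean over probes and -0.14 with array weights. In muscle it was 0.17 without scaling, where the median of all genes also moved, to 0.14, and -0.13 to 0.16 with 1 array left out. Without scaling the median of all genes between the WT tissues was 0.17. Differences below 0 in muscle numbered 18, against 11 without scaling, 10 of the 16 that lay above the median of all genes (the 18 genes described as above the array median were set against all named probes), 9 with array weights and 10 to 23 with 1 array left out (10 without KO array 2, 11 without WT array 3). Genes with KO arrays below all WT arrays in brain numbered 5, against 0 without scaling and 0 with median scaling, and 5 to 11 with 1 array left out (11 without WT array 1, 8 without WT array 2 or KO array 1). Genes above in brain numbered 0, against 1 with median scaling, 1 without WT arrays 3 and 4, and 0 to 1 with 1 array left out. In muscle 1 lay below with the mean over probes, 0 to 1 did with 1 array left out, and 4 to 9 lay above (9 without KO array 2). The share of all genes was not counted with 1 array left out or with the mean over probes. Fewer arrays make a lack of overlap commoner: in brain 2.44% of all genes lay below, and 5.57% without WT arrays 3 and 4. The larger counts are therefore not a result about the 37 genes.

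With the array number as a replicate block, 0 genes passed in brain and 1 in the tissue difference, and no call among the 37 changed. Deviations of all genes from their group means were correlated between WT and KO arrays. Same-numbered arrays gave -0.05 to 0.10 in brain and -0.08 to 0.20 in muscle. Differently numbered arrays gave -0.11 to 0.06 in brain and -0.28 to 0.12 in muscle. The highest value in each tissue was thus same-numbered, and these values do not settle whether the numbers mark pairs. The numbers were not treated as pairs because the labels do not give them that meaning. For genes near the lowest values in muscle, signal over background limits what can be seen.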
